A study of Mus musculus with 9 samples.

Results

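The genes described here are 10 members of the mammalian circadian clock and its direct output, Arntl (the gene of the protein BMAL1), Clock, Npas2, Per1, Per2, Per3, Cry1, Nr1d1, Nr1d2 and Dbp, measured in mouse brown adipose tissue (BAT). They were matched by exact gene symbol and are 10 of the 24356 symbols listed for each library. All 10 had a value above 0 in every library and entered the tests. The study compared BAT of growth hormone releasing hormone knockout (GHRH-KO) mice with that of wild-type (WT) littermates by poly(A) RNA sequencing, 1 library for each animal. There were 2 KO females, 2 KO males, 3 WT females and 2 WT males, all on a mixed C57BL6 and 129SV background, housed on a light/dark cycle with free access to chow and water. Loss of GHRH leaves an animal short of growth hormone, and it is not limited to BAT, so the tissue was that of an animal lacking the hormone throughout the body. The ages of the animals were not used here, and the labels and methods do not state the hour at which each was killed, which fixes where in its daily cycle a clock gene was caught.

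The clock is a loop of transcription that takes about a day to turn. BMAL1 pairs with CLOCK or its relative NPAS2 and switches on the Per and Cry genes through DNA sequences called E-boxes, and the PER and CRY proteins return to the nucleus and shut that pair off. The same pair drives Nr1d1 and Nr1d2, whose products REV-ERB alpha and beta repress Arntl and Npas2, and Dbp, a transcription factor that acts on D-boxes in further genes, Per3 among them. Arntl and Npas2 RNA therefore peak at about the time of day when Nr1d1, Dbp and Per3 are low. Brown fat is a tissue of heat production, and its clock is known to follow the light cycle, feeding and sympathetic input.

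Stretches of 3 promoters are shown because they hold exact copies of the elements through which clock proteins act on the Per and Cry genes compared below. RefSeq promoters of GRCm38.p6, running from 250 bases before to 50 after each start, were found for 9 of the 10 members, not for Per2. The E-box searched was CACGTG, the D-box TTATGTAA or TTACGTAA, the ROR/REV-ERB element TAGGTCA or TGGGTCA, and the cAMP response element TGACGTCA, each on both strands. Of 32851 mouse promoters of this length, 7.15% held the E-box, 1.06% the D-box, 6.45% the ROR/REV-ERB element and 1.79% the cAMP response element. The Per3 promoter held the D-box at 2 places, and those of Cry1 and Per1 (1 of its 2 starts) held an E-box, shown in capitals in stretches printed 5′ to 3′ on the strand of the gene. The Per3 stretch lies at chr4:151044801-151044885 on the minus strand, that of Cry1 at chr10:85185094-85185129 on the minus strand, and that of Per1 at chr11:69098768-69098803 on the plus strand.
Per3: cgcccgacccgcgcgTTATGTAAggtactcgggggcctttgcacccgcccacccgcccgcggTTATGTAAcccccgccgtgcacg
Cry1: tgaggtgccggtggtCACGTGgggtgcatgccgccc
Per1: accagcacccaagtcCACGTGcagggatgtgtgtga
Arntl held the ROR/REV-ERB element TAGGTCA 30 bases after 1 of its 2 starts. No other match was found in these windows.

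The libraries were alike in total, at 380558 to 443569 summed FPKM (fragments mapped to a gene, per unit of transcript length and of sequencing depth, as the authors computed them), and in relative depth, at 0.914 to 1.14 times that of WT female 1. Spearman correlation over genes was 0.963 to 0.976 among 8 libraries, and 0.950 to 0.955 between KO male 1 and the rest. KO male 1 also stood apart in lymphocyte markers, with a summed level of 301 FPKM over 11 genes against 5.35 to 15.2 in the others, and in macrophage markers, with 553 over 9 genes against 43.4 to 166. The tissue label held, since the 14 brown adipocyte markers summed to 6603 to 8589 FPKM in KO-labelled and 6308 to 8152 in WT-labelled libraries. White adipocyte markers were also present, at 59.3 to 128 FPKM over 11 genes in KO-labelled and 108 to 451 in WT-labelled libraries, with WT female 1 (451) and WT male 2 (412) standing apart, although Hoxc10 was at 0 in 9 libraries and Hoxc9 in 7. Skeletal muscle markers were higher in every KO-labelled library, at 3009 to 13654 FPKM over 14 genes against 517 to 2599. By the averaged difference 14 of 14 were higher and limma called 3, against 3.6% of all genes. Xist and the Y-linked genes matched the sex labels. Ghrh itself did not match the genotype labels: it was 0.846, 0.233, 0.799 and 0.470 FPKM in KO female 1, KO female 2, KO male 1 and KO male 2, and listed at 0 in the 5 WT-labelled libraries. Each direction below is therefore between libraries labelled KO and libraries labelled WT.

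None of the 10 clock genes was called as different between KO-labelled and WT-labelled BAT by limma when both sexes were pooled. Per1 and Per3 had an unadjusted limma p under 0.05 there, and with so few libraries the lack of a call does not exclude a difference. Arntl, Per2, Nr1d2 and Dbp had means somewhat higher and Clock, Per1 and Per3 somewhat lower in KO-labelled libraries, and for every member the 4 KO-labelled and 5 WT-labelled libraries overlapped. Within the sexes the picture was more ordered, with Per2, Per3 and Nr1d2 higher in every KO-labelled female than in any WT-labelled female and lower in every KO-labelled male than in either WT-labelled male. These differences did not pass the test after adjustment over all genes with the 9 libraries included.

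**Figure D1:**
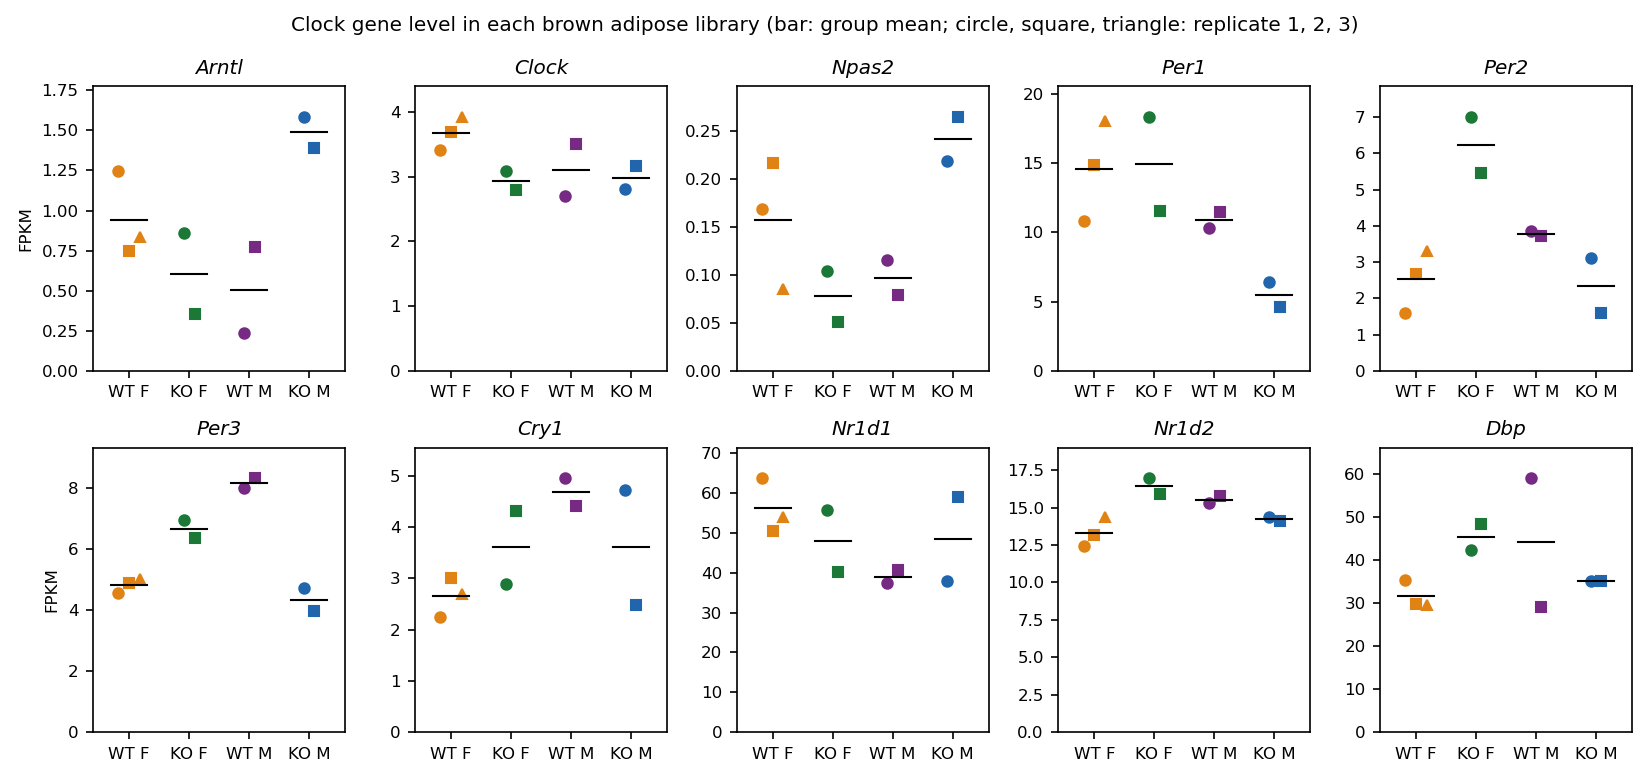
FPKM of each of the 10 clock genes (vertical axis, from 0) in the 9 BAT libraries by group (horizontal axis; F female, M male), where symbols mark replicates and the bar the group mean. Per2, Per3 and Nr1d2 are higher in KO females than WT females and lower in KO males than WT males, whereas Cry1 and Nr1d1 overlap in both sexes.

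The activators of the loop come first. Arntl (chr7:113207465-113314126, plus strand; GENCODE M21 on mm10) was a low transcript, at 0.859 and 0.353 FPKM in the KO females, 1.59 and 1.39 in the KO males, 1.25, 0.747 and 0.833 in the WT females, and 0.238 and 0.775 in the WT males. Both KO males were above all the other 7 libraries, and WT male 1 was the lowest of all, with 6.68 times between the ends. Averaged over the sexes the log2 difference, KO minus WT, was 0.53 ± 0.42 (SE) with an adjusted p of 0.562 (limma), which combines −0.74 in females and 1.79 ± 0.62 in males (95% interval 0.35 to 3.23, unadjusted p = 0.0211, adjusted p = 0.202). Fold changes here are on log2 FPKM with no pseudocount.

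Npas2 (chr1:39193731-39363236, plus strand), the relative of Clock that can take its place, was likewise highest in the KO males, at a far lower level. It was 0.104 and 0.0513 FPKM in the KO females, 0.219 and 0.266 in the KO males, 0.169, 0.217 and 0.0859 in the WT females, and 0.116 and 0.0789 in the WT males. The KO males were again above every other library, KO male 1 by a narrow margin over WT female 2, and KO female 2 was the lowest. Its log2 difference was −1.0 in females, with a limma adjusted p of 0.491, and 1.33 in males, with one of 0.329. Values this small rest on few fragments, whose number the FPKM do not give.

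Clock (chr5:76209868-76304792, minus strand), whose product BMAL1 needs to bind the E-box and whose RNA cycles little in most tissues, was steady. The KO females had 3.08 and 2.79 FPKM, the KO males 2.81 and 3.16, the WT females 3.42, 3.68 and 3.93, and the WT males 2.70 and 3.5. Both KO females were below all 3 WT females, while the males overlapped. With 2.96 ± 0.188 FPKM (SD, n = 4) against 3.45 ± 0.462 (n = 5), the difference averaged over sexes was −0.19 ± 0.12 (SE) on the log2 scale, with a limma adjusted p of 0.455.

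Among the Per genes, whose products close the loop, Per3 (chr4:151003652-151044665, minus strand) was the most sharply ordered by group. It was 6.96 and 6.39 FPKM in the KO females, 4.73 and 3.98 in the KO males, 4.57, 4.92 and 5.03 in the WT females, and 8.02 and 8.34 in the WT males. WT males were the highest, KO females next, and KO males overlapped with WT females at the lower end. Its SD within groups, 0.10 on the log2 scale, was below the median of 0.19 for the 10877 genes with a mean of at least 1 FPKM, although its whole range was 2.09-fold. The log2 difference was 0.46 ± 0.12 (SE) in females, with a limma adjusted p of 0.205, and −0.91 ± 0.13 in males (95% interval −1.23 to −0.60, limma adjusted p = 0.0659).

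The difference between these sex-specific values, the interaction of genotype and sex, was −1.38 ± 0.18 (SE) for Per3, with the second lowest p of 14675 genes at 8.03e-05 and a limma adjusted p of 0.438. It was not called with all libraries. Without KO male 2, so that KO male 1 alone stood for that group and was taken to vary like the rest, the value in males was −0.79 with a limma adjusted p of 0.0254 and the interaction −1.25 with an adjusted p of 0.0197, both called. In that setting calls rose over all genes, to 8.72% of 14778 in males and 4.89% for the interaction, from 2 genes and 0. Without KO male 1, the library with lymphocyte markers, the values were −1.04 and −1.50 with adjusted p of 0.0964 and 0.179. The direction was the same in each case, which the lack of overlap between the genotypes within each sex fixed in advance.

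Per2 (chr1:91415982-91459324, minus strand), which responds to light, hormones and temperature as well as to the E-box, differed between genotypes in the same directions within each sex as Per3. It was 7.01 and 5.46 FPKM in the KO females, 3.11 and 1.59 in the KO males, 1.60, 2.68 and 3.29 in the WT females, and 3.85 and 3.71 in the WT males. The KO females were above every other library, and KO male 2 and WT female 1 were the lowest. The log2 difference was 1.36 ± 0.37 (SE) in females (95% interval 0.50 to 2.21, limma adjusted p = 0.219) and −0.77 ± 0.40 in males, where limma gave an adjusted p of 0.406. Averaged over the sexes it was 0.30 ± 0.27 with an adjusted p of 0.629, and the interaction was −2.12 ± 0.54 with an adjusted p of 0.624. The value in males was −1.25 without KO male 1 and −0.28 without KO male 2.

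Per1 (chr11:69095217-69109960, plus strand), the Per gene that cAMP and glucocorticoids induce most readily, gave a different order. The KO females had 18.3 and 11.6 FPKM, the KO males 6.39 and 4.62, the WT females 10.8, 14.9 and 18, and the WT males 10.3 and 11.5. The females overlapped between genotypes, and both KO males were below every other library. The log2 difference was 0.03 ± 0.27 (SE) in females and −1.0 ± 0.30 in males (limma adjusted p = 0.147). Per1 was also the member with the lowest p for sex, at −0.91 ± 0.20 for males minus females (limma adjusted p = 0.242), and the KO males contribute most to that value.

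Cry1 (chr10:85131700-85185064, minus strand), the cryptochrome that represses the BMAL1 pair most strongly, was 2.89 and 4.32 FPKM in the KO females, 4.73 and 2.47 in the KO males, 2.24, 3.01 and 2.70 in the WT females, and 4.95 and 4.4 in the WT males. The genotypes overlapped in both sexes, and KO male 1 and KO male 2 lay near opposite ends of the range. The log2 difference averaged over sexes was −0.01 ± 0.22 (SE; 95% interval −0.53 to 0.51, limma adjusted p = 0.988), a value whose sign depends on the scaling (0.05 after median centring or quantile normalization).

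The REV-ERB genes, which feed back on Arntl, had with Dbp the highest mean FPKM of the 10. Nr1d1 (chr11:98767932-98775333, minus strand) was 55.7 and 40.2 FPKM in the KO females, 37.9 and 58.9 in the KO males, 63.6, 50.5 and 54.0 in the WT females, and 37.3 and 40.5 in the WT males. KO and WT libraries were interleaved, at 48.2 ± 10.7 (SD, n = 4) and 49.2 ± 10.6 (n = 5), with a log2 difference of 0.02 ± 0.16 (SE; 95% interval −0.35 to 0.39, limma adjusted p = 0.966). It shares 263 exonic bases, 8.55% of its length, with Thra on the other strand, and no source used here states that strand was counted, so reads there cannot be told apart.

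Nr1d2 (chr14:18204054-18239127, minus strand) had the smallest spread of all members, with an SD within groups of 0.08 on the log2 scale. The KO females had 17.0 and 15.9 FPKM, the KO males 14.4 and 14.1, the WT females 12.4, 13.2 and 14.4, and the WT males 15.3 and 15.8. As with Per2 and Per3, KO females were above WT females and KO males below WT males, by small steps. The log2 difference was 0.30 ± 0.10 (SE) in females, −0.12 ± 0.10 in males and −0.43 ± 0.14 for the interaction, with limma adjusted p of 0.270, 0.631 and 0.659.

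Dbp (chr7:45705088-45710203, plus strand), the output factor that binds D-boxes, was 42.5 and 48.4 FPKM in the KO females, 35.2 and 35.3 in the KO males, 35.4, 29.8 and 29.7 in the WT females, and 59.2 and 29.2 in the WT males. Both KO females were above all WT females. The WT males held the highest and the lowest value of the 9 libraries, and the highest, WT male 1, was also the library with the least Arntl. The log2 difference was 0.53 ± 0.26 (SE) in females and −0.24 ± 0.29 in males, with limma adjusted p of 0.448 and 0.748, and the value in males became 0.27 without WT male 1. Dbp shares 539 exonic bases, 18% of its length, with Sphk2 on the other strand, which was 18.7 FPKM in WT male 1 and 11 to 15.9 elsewhere.

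Counted over the 10 genes, limma called 0 members in each comparison at an adjusted p under 0.05, against a background of 3.6% of all 14675 genes for KO minus WT averaged over sexes, 0.0204% in females, 0.0136% in males, 0.0136% for sex and 0.0% for the interaction. At an unadjusted p under 0.05 the members numbered 2 for the averaged difference (Per1 and Per3), against 20.2% of all genes. They numbered 3 in females (Per2, Per3 and Nr1d2) against 12.7%, 3 in males (Arntl, Per1 and Per3) against 16.6%, and 1 for sex (Per1) against 10.4%. For the averaged difference and for sex, those shares of members were near the background. For the interaction they numbered 6 (Arntl, Npas2, Per1, Per2, Per3 and Nr1d2), against 7.01% of all genes. An ordinary linear model at an unadjusted p under 0.01 gave 0, 2, 1, 0 and 2 members in these comparisons, against 7.54%, 3.43%, 5.29%, 3.14% and 1.66% of all genes. The members were Per3 and Nr1d2 in females, Per3 in males, and Per3 and Nr1d2 for the interaction.

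**Figure D2:**
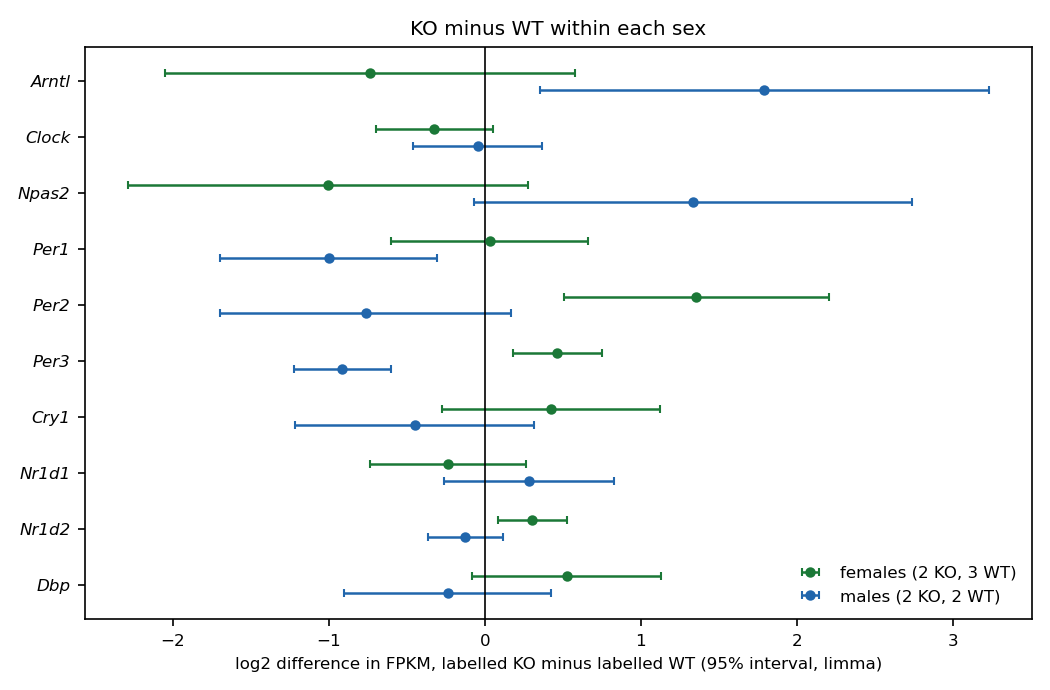
Log2 difference in FPKM, KO-labelled minus WT-labelled libraries (horizontal axis), for the 10 clock genes (vertical axis), in females (2 KO, 3 WT) and males (2 KO, 2 WT), as the limma estimate with its 95% interval. The estimates of Per3 lie on opposite sides of 0 with intervals that do not cross it, at 0.46 in females and −0.91 in males. The intervals are not adjusted for the number of genes, and neither difference was called (limma adjusted p = 0.205 and 0.0659).

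The exact permutation test over all assignments of 9 libraries to 4 and 5, two-sided and unadjusted, gave p from 0.103 for Clock to 0.889 for Nr1d1 over the 10 members. No member had every KO-labelled library above every WT-labelled one, against 3.03% of all genes, and none had every one below, against 6.04%. The genes that were above without overlap in females and below without overlap in males were 378 of 14675, or 2.58%, and 3 of the 10 members (Per2, Per3 and Nr1d2). The reverse order was held by 0.77% of all genes and by 0 members. The sign of the difference between KO and WT was opposite in the sexes for 9 of the 10 members, Clock being the exception, and for 41.9% of all genes, and these counts were chosen after the values had been seen. The median interaction over the members was −0.60 on the log2 scale, against −0.01 over all genes.

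**Figure D3:**
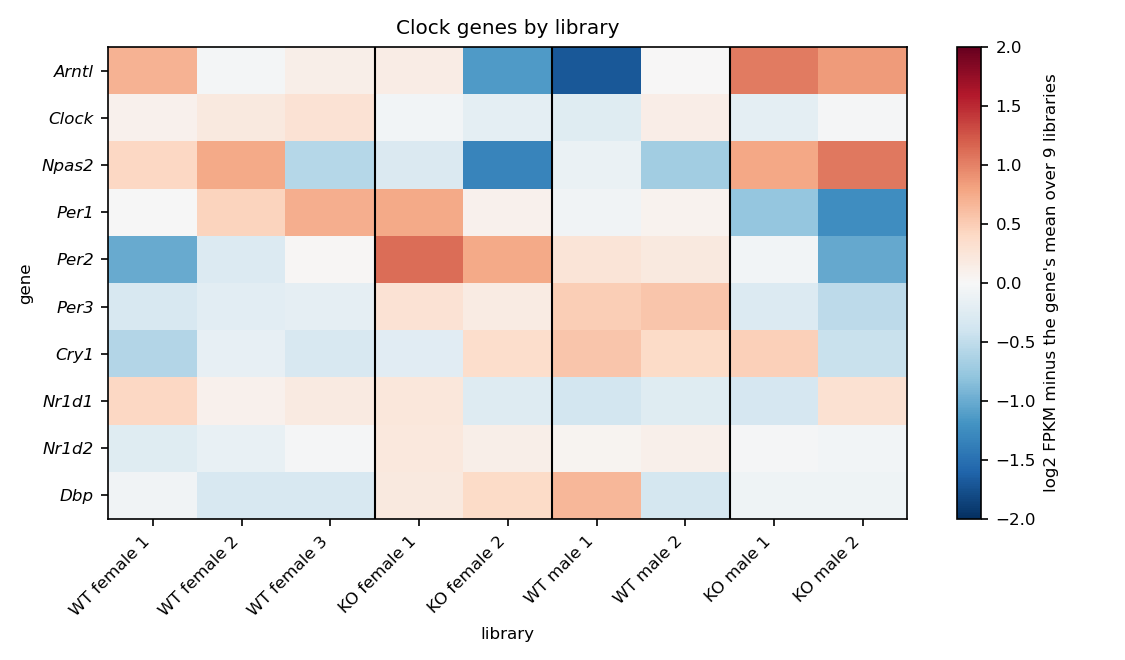
Log2 FPKM of each clock gene (rows) minus its mean over the 9 libraries, by library (columns, ordered by group; colour scale in log2 units). Arntl and Npas2 are above their means in both KO males, where Per1 and Per3 are below theirs, and Per2, Per3, Nr1d2 and Dbp are above their means in both KO females.

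The study's labels give no hour of collection, so the relation between genes that peak at opposite times was used to place the libraries against one another, as a description with no test. The log2 ratio of Arntl to Per3 was −3.02 and −4.18 in the KO females, −1.58 and −1.52 in the KO males, −1.87, −2.72 and −2.60 in the WT females, and −5.08 and −3.43 in the WT males. KO males had the highest ratios, WT females came next, and KO females and WT males had the lowest. No KO female or WT male reached the level of any KO male or WT female. Arntl to Dbp had group means of −6.36 in KO females, −4.57 in KO males, −5.10 in WT females and −6.60 in WT males, and Arntl to Nr1d1 of −6.42, −4.99, −5.92 and −6.50. In both of those, WT male 2 (−5.24 and −5.71) lay among the WT females. The low mean of the WT males there thus came from WT male 1 (−7.96 and −7.29). For Arntl to Nr1d1, KO female 1 (−6.02) also lay among the WT females. The low mean of the KO females in that ratio thus came from KO female 2 (−6.83).

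Npas2 to Nr1d2 had group means of −7.81 in KO females, −5.88 in KO males, −6.50 in WT females and −7.34 in WT males, the same order except that KO females were the lowest, and WT female 3 (−7.39) lay with the KO females and WT males. By these ratios the libraries were not placed alike, but the ratios are not separate readings of the time of day. Those with Arntl share a gene that ranged more widely than Per3, Dbp or Nr1d1, so they largely repeat its values. Npas2 likewise ranged more widely than Nr1d2. Arntl and Nr1d1 were also not opposed over these libraries, as described below. The order, largely that of Arntl, was by sex and genotype together rather than by genotype. It also divided libraries of 1 group, as WT male 1 and WT male 2. Because each group could have been collected at its own hour, a difference in collection time and a difference by group cannot be told apart. A pseudocount of 1 brings the ratios of these low genes closer together, and with it KO females had the lowest Arntl to Nr1d1 mean and WT males the highest after KO males.

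**Figure D4:**
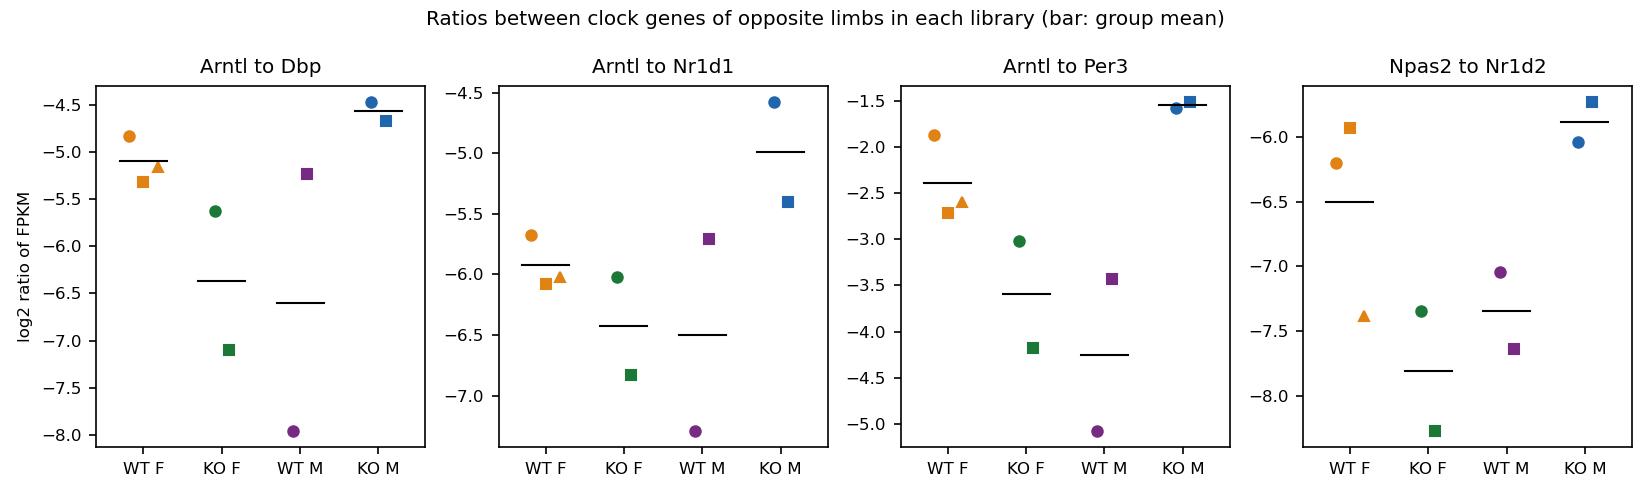
Log2 ratio of FPKM between clock genes of opposite limbs (vertical axis; 1 panel for each pair) in every library by group (horizontal axis; F female, M male), with symbols for replicates and a bar for the group mean. For Arntl to Per3 the KO males sit at −1.58 and −1.52 and the WT males at −5.08 and −3.43.

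Over the day Arntl is known to run against Per3, Dbp and Nr1d1, and its relation with the 9 other members was examined from animal to animal over the 9 libraries. Arntl was negatively related to Per3 (r = −0.698, exact permutation p = 0.0343, adjusted p = 0.167 over the 9 relations; rho = −0.683, exact p = 0.0503) and to Dbp (r = −0.698, exact p = 0.0372, adjusted p = 0.167; rho = −0.283, exact p = 0.463). Without WT male 1 and KO female 2, the libraries with Arntl farthest from its median, r was −0.636 for Per3 and 0.425 for Dbp (n = 7), so that the relation with Dbp rested on those libraries. Within groups, as deviations from the group means, r was 0.272 for Per3 (exact permutation p = 0.417), opposite in sign to that over all libraries. For Dbp it was −0.717 within groups, with an exact permutation p of 0.438.

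Arntl and Nr1d1 were not opposed. Their r was 0.532 (exact permutation p = 0.149, adjusted p = 0.224; rho = 0.500), near 0 without the same 2 libraries (−0.00340), and 0.875 with an adjusted p of 0.00502 by the exact permutation test without KO male 1. Cry1 moved the other way, with r = −0.533 with Arntl (exact permutation p = 0.148, adjusted p = 0.224; rho = −0.450), 0.00578 without the 2 libraries farthest from the Arntl median and −0.867 with an adjusted p of 0.00502 by the exact test without KO male 1. Npas2, which shares its repressors with Arntl, had r = 0.618 (exact permutation p = 0.0777, adjusted p = 0.224; rho = 0.600) and 0.659 without the 2 farthest libraries. None of the 9 relations passed after adjustment with all libraries included, although with median centring that of Per3 had an adjusted p of 0.0408 by the exact test.

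**Figure D5:**
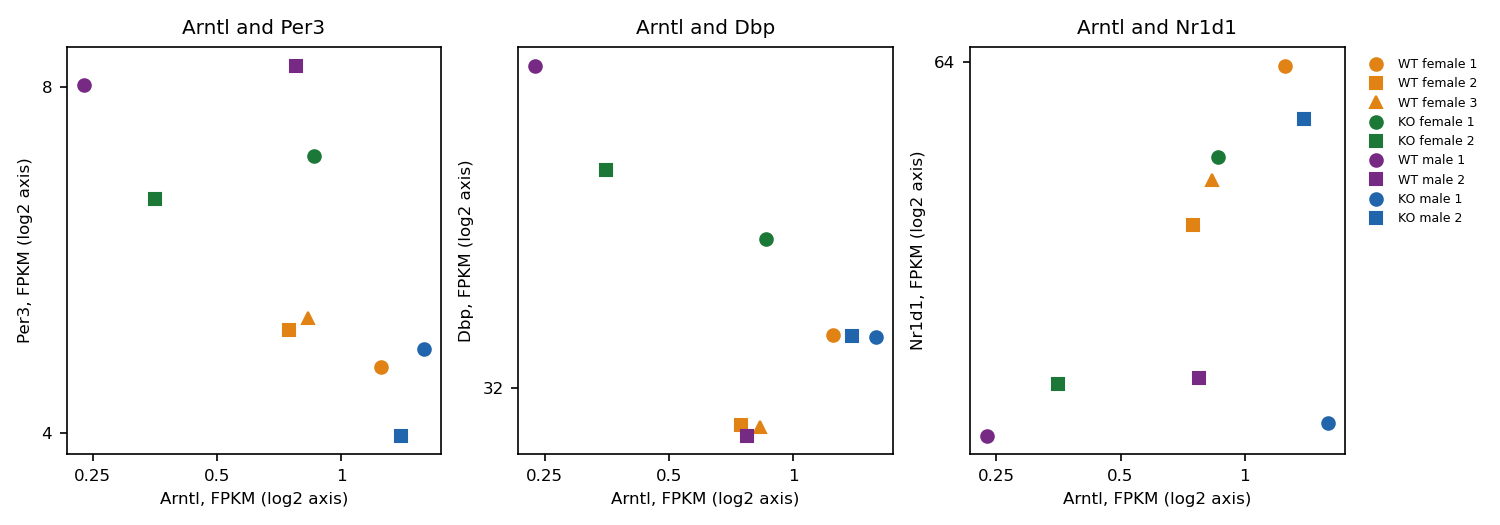
FPKM of Per3, Dbp and Nr1d1 (vertical axes) against Arntl (horizontal axes), all on log2 axes, 1 point for each of the 9 libraries. Per3 falls as Arntl rises (r = −0.698), the point at the far left in each panel is WT male 1, and KO male 1 lies at the lower right of the Nr1d1 panel.

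The other components of the clock, a list of 33 genes of which 32 were tested, held no call in the averaged comparison either. By limma, 10 were higher in KO-labelled libraries, and the median was −0.04 on the log2 scale against −0.07 over all genes. An unadjusted p under 0.05 was reached by 9 of the 32, against 20.2% of all genes. The 4 with the lowest p were Prkaa2, an AMPK subunit that marks CRY1 for breakdown (0.45 ± 0.10 SE, adjusted p = 0.0601), Hdac3, the deacetylase that REV-ERB recruits (−0.27 ± 0.06, adjusted p = 0.0655), Ciart, a repressor of the BMAL1 pair (1.10 ± 0.34, adjusted p = 0.124), and Csnk1a1, a casein kinase (−0.19 ± 0.06, adjusted p = 0.143). Ciart was 14.8 and 13.2 FPKM in the KO females and 1.94 to 6.45 in the other 7 libraries, so only the KO females were above every WT-labelled library. In males the genotypes overlapped, at 4.92 and 5.08 FPKM in KO and 6.45 and 1.94 in WT.

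The order seen in Per2, Per3 and Nr1d2, held by 2.58% of all genes, recurred among these genes in Tef, Hlf and Nampt. They were named for it after their values had been seen. Tef, a close relative of Dbp, was 40.1 and 42.8 FPKM in the KO females and 25.3 to 29.1 in the WT females, but 31.8 and 27.9 in the KO males and 48.5 and 33.9 in the WT males. Hlf, the other relative of Dbp, was 9.32 and 13.1 FPKM in the KO females and 8.63 to 9.24 in the WT females. KO female 1 was thus above WT female 2 by a narrow margin only. In males Hlf was 7.31 and 6.16 in KO and 12.4 and 8.03 in WT. Nampt, a clock-driven enzyme of NAD synthesis, was 79.9 and 87.0 FPKM in KO females against 53.5 to 67.5 in WT females, and 70.9 and 69.2 in KO males against 98.7 and 105 in WT males. The interaction was −1.07 for Tef, −0.89 for Hlf and −1.0 for Nampt on the log2 scale, with limma adjusted p of 0.614, 0.674 and 0.614, so none was called. None of the 32 held the reverse order, which 0.77% of all genes held.

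Genes known to follow the clock in many tissues, 27 listed and 26 tested, had 10 higher, with a median of −0.05. By limma 7 had an unadjusted p under 0.05, against 20.2% of all genes, and 0 were called, against 3.6%. For the interaction the median was −0.51 against −0.01 over all genes. A negative median was also seen in the glucocorticoid responsive genes described below, at −0.63. That list is not separate from the clock lists, since it shares Tsc22d3, Klf9 and Cdkn1a with the present one and Per1 with the members. The genes induced within minutes, also described below, had 0.17. The 4 with the lowest p were Tspan4 (−0.64 ± 0.14 SE, adjusted p = 0.0544), Herpud1 (0.45 ± 0.11, adjusted p = 0.0660), Tfrc, the transferrin receptor (−1.02 ± 0.28, adjusted p = 0.0892), and Elovl3, a fatty acid elongase of brown fat (1.42 ± 0.48, adjusted p = 0.147). Elovl3 was 20.9 and 34.6 FPKM in the KO females, 16.3 and 37.0 in the KO males, 4.05, 5.90 and 9.12 in the WT females, and 31.0 and 7.49 in the WT males. WT male 1 was the WT-labelled library within the KO range, as it was the one with the most Dbp and least Arntl.

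The genes most alike in pattern to Arntl and to Dbp were sought among 10869 genes by Pearson correlation of log2 FPKM over the 9 libraries, as a description. For Arntl they were Acbd3 (r = 0.963), Nudcd1 (0.951), Socs7 (0.921), Thbs3 (0.904) and Ehbp1l1 (0.887), none of them a listed clock gene. For Dbp they were Sphk2 (0.937), which overlaps its exons on the other strand, Txnl4b (0.936), Prox2 (0.915), Rfx2 (0.872) and C1d (0.870). Acbd3 ran from 7.32 to 8.21 FPKM, a far smaller range than that of Arntl.

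Values that moved with the groups beside the clock genes bear on how they can be read. Skeletal muscle has a clock of its own, and its markers were higher in KO-labelled libraries of both sexes. They summed to 6857 and 3009 FPKM in KO females and 13654 and 6949 in KO males. Their median log2 difference, KO minus WT, was 1.35 in females and 3.14 in males. The interaction was positive for 14 of 14 muscle markers. Per2, Per3 and Nr1d2 differed in opposite directions in the sexes, and Arntl and Npas2 were highest in the KO males. Markers of other cells were mostly lower in KO-labelled libraries by the averaged difference, for which limma called 3.6% of all genes. Of fibroblast markers, 0 of 8 were higher and 4 called lower. Of white adipocyte markers, 0 of 9 were higher and 1 called lower (median −1.09 on the log2 scale). Red blood cell markers had 0 of 6 higher and 1 called lower, and macrophage markers 0 of 9 higher and 1 called lower. Markers of adipocytes of any kind had 1 of 7 higher and 2 called lower. Endothelial markers had 1 of 8 higher and 0 called, with 3 at an unadjusted p under 0.05 by limma against 20.2% of all genes. For the interaction the median was −0.41 for adipocytes of any kind (0 of 7 positive) and −0.38 for endothelial markers (0 of 8). It was −0.97 for red blood cell and −0.24 for brown adipocyte markers. White adipocyte (0.19), fibroblast (0.54), macrophage (1.29) and lymphocyte markers (4.31) had positive medians. Lymphocyte markers had 10 of 10 higher and 0 called, and their summed level was high in KO male 1 alone. The part of these in the clock gene values was not tested. In a bulk tissue, fewer cells of a type and less RNA per cell cannot be told apart, and the p-values measure the spread between these animals only.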

How the data were processed

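Brown adipose tissue was frozen, RNA extracted and poly(A) libraries sequenced as paired reads, and the methods name both HiSeq2000 and HiSeq2500 instruments. The deposited values are FPKM by gene symbol in 9 tables, and the submitters' processing notes name bcl2fastq 1.8.4, TopHat2 2.0.11, Bowtie, mm10 and GRCm38. Fragment counts per library are unknown here, so depth is only relative and no counting intervals are given. Groups were taken from the labels.

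Genes above 0 FPKM in every library (14675 of 24356) were fitted on log2 FPKM by limma 3.58.1 in R 4.3.3, with a mean for each group of genotype and sex and a mean-variance trend, and p-values were adjusted by Benjamini-Hochberg over all 14675. The methods' ordinary linear model was an alternative. The script was tested on simulated data. Single genes and relations were tested by exact permutation under Python 3.11.15 with numpy 2.4.6. Also used were pandas 2.3.3, scipy 1.17.1 (for ranks) and matplotlib 3.10.9. Positions are from GENCODE M21 and promoters from RefSeq GRCm38.p6.

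Named were all 10 members, the 4 genes with the lowest p in each list of related genes (or those called, where there were 4 or more), and the 5 genes most correlated with Arntl and with Dbp among those with a mean of at least 1 FPKM. The members and lists were chosen with earlier results of these data known. Alternatives were pseudocounts of 0.1 and 1, other filters, scalings and models, and each library left out in turn. A result for 1 gene of the related lists is not reported here.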

Additional observations from a re-analysis of the deposited data

Results flagged for a closer look

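KO-labelled minus WT-labelled differences pointed in opposite directions in the sexes for Per2, Per3 and Nr1d2, with no overlap between genotypes in either sex. The difference in males minus that in females was −2.12 for Per2, −1.38 for Per3 and −0.43 for Nr1d2 on the log2 scale, and the limma test of that interaction gave adjusted p of 0.624, 0.438 and 0.659. For Per3 its limma adjusted p was 0.0197 without KO male 2, a setting in which 723 genes were called against 0 with all libraries and KO male 1 alone stood for the KO males, and 0.179 without KO male 1. Among the 5 WT-labelled libraries, Dbp in WT male 1 was far from the others, its gap to the nearest being 0.727 of the whole range on the log2 scale. By the critical value used, chance sets about 1 group in 20 apart in this way, and the 10 genes were each examined in both genotypes, so about 1 such case would be expected.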

How the results depend on the processing

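The direction of the differences of Per2, Per3 and Nr1d2 in females, in males and for the interaction held under all 18 alternatives. Most of these could not have turned it, because the genotypes did not overlap in either sex for these genes. Only median centring and quantile normalization could have done so. The Per3 interaction lay between −1.50 and −1.18. Clock genes called went from 0 to 2 in females, 1 in males and 2 for the interaction by the ordinary model at p under 0.01, and ranged from 0 to 1 in males and for the interaction when 1 library was left out, the 1 being Per3 without KO male 2. Over all genes, the 529 called for the averaged difference became 170 with genes above 0 in at least 1 library and a pseudocount of 0.1, 222 with median centring, 19 by the ordinary model with adjusted p, 1107 by it at p under 0.01, 34 without the trend, and 8 (without KO female 1) to 1020 (without KO male 2) with 1 library left out. The 3 called in females became 11 at a mean of at least 1 FPKM, 1 and 503 by the ordinary model adjusted and at p under 0.01, 0 without the trend, and 0 to 19 with 1 library left out. The 2 called in males became 0 with a pseudocount of 1, 1 with the wider filter, 19 at a mean of at least 1 FPKM, 1 with quantile normalization, 0 and 777 by the ordinary model, 0 without the trend, and 0 to 1289 (without KO male 2) with 1 library left out. The 2 called for sex became 10 with the wider filter, 1 with median centring, 8 and 461 by the ordinary model, and 1 to 808 (without KO male 2). The 0 called for the interaction became 244 by the ordinary model at p under 0.01 and 0 to 723 (without KO male 2). The cause was not tested.

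Signs turned for the following values. For the averaged difference, leaving out 1 library took Npas2 from −0.0908 to 0.42, Cry1 from −0.25 to 0.22, Nr1d1 from −0.14 to 0.18 and Dbp from −0.11 to 0.40. Cry1 was 0.0460 with median centring, 0.0541 with quantile normalization and 0.0275 in an additive model, in which Nr1d1 was −0.000607. Per1 in females ranged from −0.30 to 0.36. In males Clock ranged from −0.23 to 0.14, Cry1 from −0.92 to 0.0172, Nr1d1 from −0.0345 to 0.60 and Dbp from −0.75 to 0.27. For sex, Arntl ranged from −0.26 to 0.59, Nr1d2 from −0.0168 to 0.0361 and Dbp from −0.24 to 0.27, and with median centring Nr1d2 was −0.0468 and Dbp −0.0368. As deviations from group means, r with Arntl turned to 0.284 for Per1, 0.272 for Per3 and 0.164 for Nr1d2. The median of all genes, −0.07, moved to −0.02 with median centring. No paired analysis was possible because the labels give the groups no shared replicate numbers. FPKM limit what can be said of Arntl and Npas2, whose fragment numbers are unknown.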

Other observations

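Genes induced within minutes by cAMP, calcium or growth factors, which vary with handling and activity as well as with time of day, had a lower summed level in the 4 KO-labelled libraries than in 4 of the 5 WT-labelled ones. Of 23 tested, 1 was higher, with a median of −0.84 on the log2 scale against −0.07 over all genes. By limma 0 were called, against 3.6% of all genes, and 3 had an unadjusted p under 0.05, against 20.2%. Their summed level was 292, 233, 179 and 179 FPKM in KO female 1, KO female 2, KO male 1 and KO male 2, and 509, 455, 602, 140 and 621 in WT female 1 to 3, WT male 1 and WT male 2. WT male 1 was below every KO-labelled library. Nr4a1, an orphan nuclear receptor induced in brown fat by sympathetic input, was 8.14 FPKM in WT male 1 against 108 to 166 in the other WT-labelled libraries and 8.08 to 62.7 in KO-labelled ones. Jun (−1.19 ± 0.32 SE, limma adjusted p = 0.0808), Sik1 (−1.20 ± 0.45, adjusted p = 0.183), Nr4a1 (−1.83 ± 0.75, adjusted p = 0.222) and Nr4a3 (−1.10 ± 0.49, adjusted p = 0.262) had the lowest p.

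Glucocorticoid responsive genes, which follow the daily rhythm of corticosterone, had 1 of 16 higher for the averaged difference by limma, with a median of −0.57. Of the 16, 1 was called lower and 7 had an unadjusted p under 0.05, against 3.6% and 20.2% of all genes. In females 7 of 16 were higher and the median was −0.27, and in males 0 of 16 were higher and the median was −0.59. For the interaction 5 of 16 were positive and the median was −0.63. Per1 is itself on this list. The called gene was Sult1a1, a sulfotransferase, at 17.6 to 22.8 FPKM in KO-labelled and 21.7 to 50.8 in WT-labelled libraries (−0.77 ± 0.12 SE, limma adjusted p = 0.0318), with a difference of −0.24 in females and −1.30 in males. Errfi1 (−0.83 ± 0.18, adjusted p = 0.0505), Angptl4 (−0.78 ± 0.27, adjusted p = 0.153) and Sgk1 (−0.60 ± 0.21, adjusted p = 0.157) were next. WT male 1 was not low throughout the list. Errfi1 (6.17 FPKM), Sgk1 (20.2), Cdkn1a (17.0), Pdk4 (235), Angptl4 (97.4), Dusp1 (10.4) and Per1 (10.3) were there the lowest of the 5 WT-labelled libraries. Fkbp5 (8.31), Zbtb16 (6.06), Mt1 (558), Mt2 (184) and Sult1a1 (50.8) were the highest of all 9. Of these genes, all but Sult1a1, Errfi1, Sgk1, Angptl4 and Per1 were named after their values had been seen.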
